A study of Mus musculus with 12 samples.

Results

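Dab2, which encodes an adaptor protein of clathrin-mediated uptake, was measured together with 8 endocytic receptor genes of macrophages, Stab1, Lrp1, Mrc1, Cd163, Msr1, Cd36, Scarb1 and Marco. The 9 genes were read by symbol from a table of 23420 gene rows, in libraries of macrophages sorted from mouse bone marrow. The set was chosen by function and selected on measured values, with the tibia and femur counts of these same libraries known. The change of the members from femur to tibia is therefore given as a description, with no p-value per gene. The count of members called for it is printed beside the share of all genes, and nothing is read from it. The cells came from bone marrow nucleated cells of 2 mice on a C57BL/6 background, numbered 7 and 19. In each mouse the tibia had received mesenchymal stromal cells (MSCs), the supporting cells of the marrow, and the labels call the sorted cells of that bone MSC-educated macrophages. The femur of the same mouse was untreated, and its sorted cells are labelled macrophages. Each bone of each mouse gave 3 libraries, 12 in all. Treatment always fell on the tibia and the femur was always the untreated bone, so the treatment and the bone cannot be told apart. The series title places the work in leukaemic marrow, but the age and sex of the mice, any leukaemia they carried, the source and timing of the MSCs and the markers of the sort are not stated in the material analysed here.

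Scavenger and endocytic receptors let a macrophage bind spent proteins, modified lipoproteins, dying cells and microbes and carry them to the lysosome. Some of these receptors, LRP1 among them, hold short NPXY sequences in their cytoplasmic tails. Adaptors such as DAB2 grip these sequences with a phosphotyrosine-binding (PTB) domain while they also bind clathrin. In bone marrow, resident macrophages use such receptors to clear haemoglobin, old neutrophils and the nuclei that red cell precursors cast off.

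Total counts ran from 9773455 to 14869150 per library. Values are in CPM, the counts of a gene scaled to the effective size of its library. The labels do not say whether the 3 libraries of a bone came from separate sorts, so p-values measure the spread between libraries, which may be technical, and each mouse is 1 animal. The sorted cells carried the macrophage genes Csf1r (785 to 1107 CPM as group means), Itgam (1507 to 1623), Cd68 (262 to 280) and Emr1, the F4/80 gene (249 to 363), in both bones. Of the 9 genes 8 were tested, and 1, Marco, had no count. No tested member fell below 1.39 CPM in any library, above the filter's 0.776 CPM, so none of the 8 passed it through 1 bone only.

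Dab2 was near the bottom of the receptor group in the femur and much higher in the treated tibia. In mouse 7 its level was 3.69, 2.74 and 3.99 CPM in the 3 femur libraries and 18.7, 21.4 and 19.6 CPM in the 3 tibia libraries. In mouse 19 it was 2.16, 2.07 and 2.20 CPM in the femur and 24.1, 28.8 and 29.7 CPM in the tibia. The lowest tibia library thus stood above the highest femur library by a wide margin in each animal, and no tibia library of either mouse overlapped a femur library. The ratio of means was 5.72 in mouse 7 (3.48 ± 0.66 to 19.9 ± 1.36 CPM, SD, n = 3) and 12.8 in mouse 19 (2.14 ± 0.07 to 27.5 ± 2.99 CPM). These rest on 141 and 798 counts in the femur and tibia of mouse 7 and on 75 and 1084 in mouse 19. Over both mice the log2 fold change was 3.04 ± 0.15 (SE).

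Stab1 encodes stabilin-1, a receptor of alternatively activated macrophages and of sinusoidal endothelium that takes up the matrix protein SPARC and modified lipoproteins. In mouse 7 it stood at 25.6, 30.2 and 28.9 CPM in the femur and at 49.2, 52.8 and 57.6 CPM in the tibia. In mouse 19 it stood at 9.36, 10.8 and 9.83 CPM in the femur and at 36.5, 36.5 and 41.2 CPM in the tibia. All tibia libraries were above all femur libraries, across the animals as well as within them, although the 2 femurs lay far apart. The ratio of means was 1.88 in mouse 7 and 3.82 in mouse 19, and the log2 fold change over both was 1.33 ± 0.12 (SE). Stab1 exons overlap those of Nt5dc2 on the opposite strand, and the strand setting of the counting is not stated in the material analysed here. Nt5dc2 itself had means of 48.8 and 55.7 CPM in femur and tibia of mouse 7 and 45.4 and 49.1 CPM in mouse 19, with a log2 fold change of 0.16 ± 0.05 (edgeR adjusted p = 0.0752).

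**Figure D1:**
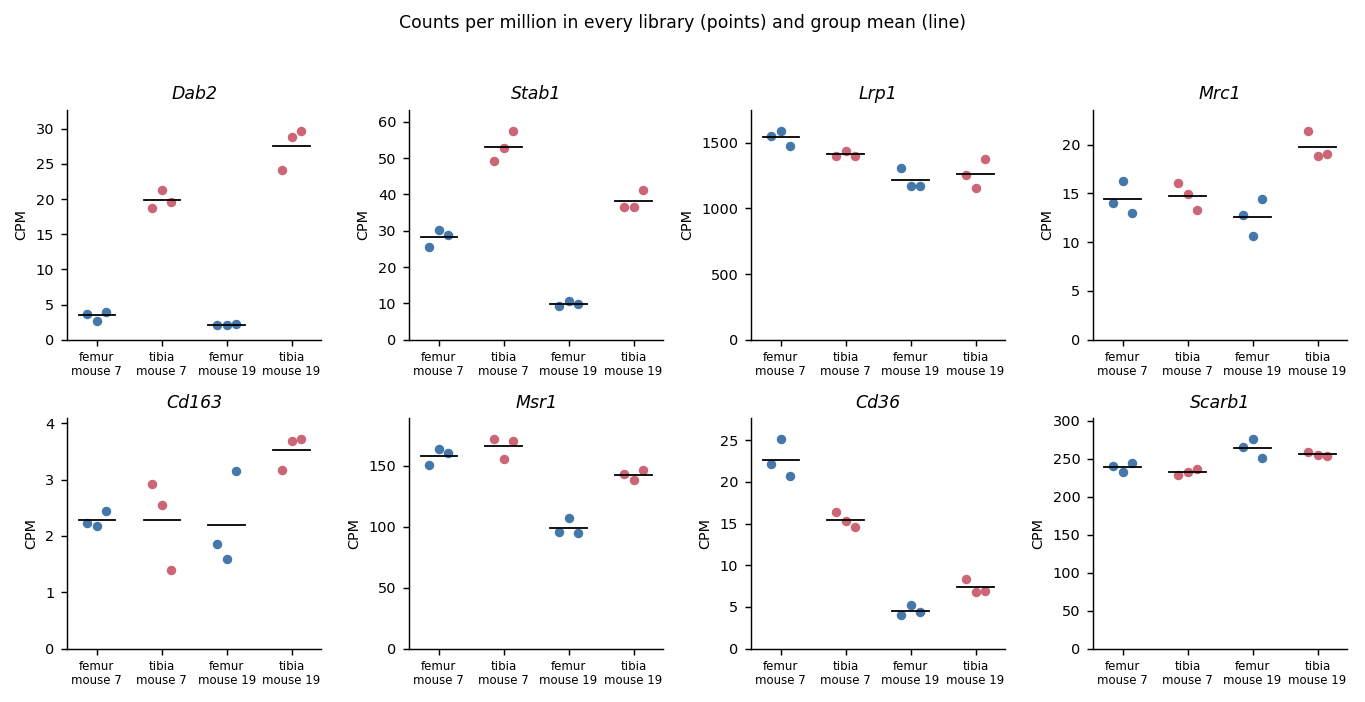
CPM (vertical axes, each starting at 0) of the 8 tested genes in each library, with femur libraries in blue, tibia libraries in red and a black line at the mean of 3. Dab2 and Stab1 stand higher in the tibia of both mice, Cd36 is lower in the tibia of mouse 7 and higher in that of mouse 19, while Scarb1 stays between 229 and 275 CPM.

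The start regions of Dab2, Stab1 and Cd36 are shown because the first pair stood higher in both tibias while Cd36 moved opposite ways in the 2 mice. In GRCm38.p6, the assembly that mm10 names, Dab2 lies on chromosome 15 from 6299788 to 6440715 on the plus strand, Stab1 on chromosome 14 from 31139017 to 31168651 on the minus strand and Cd36 on chromosome 5 from 17781690 to 17888959 on the minus strand. RefSeq gives Dab2 a pair of start sites, and the counts per gene do not say which was used. The Cd36 window lies inside the range of the gene and not at its upstream end, and the sequence at that end is not shown. Each window runs from 250 bases before to 50 bases after a start, in the direction of the gene, at chr15:6299539-6299838 and chr15:6386498-6386797 for Dab2, chr14:31168592-31168891 for Stab1 and chr5:17835847-17836146 for Cd36. Capitals mark TGCTGA or its reverse TCAGCA, the core of the half-site bound by MAF proteins.
Dab2, upstream start: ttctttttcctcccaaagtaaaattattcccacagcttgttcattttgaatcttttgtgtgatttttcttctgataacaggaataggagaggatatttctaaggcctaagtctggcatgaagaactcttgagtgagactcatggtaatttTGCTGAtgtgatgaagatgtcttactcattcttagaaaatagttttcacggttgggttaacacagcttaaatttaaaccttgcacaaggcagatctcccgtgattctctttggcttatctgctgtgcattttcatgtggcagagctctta
Dab2, downstream start: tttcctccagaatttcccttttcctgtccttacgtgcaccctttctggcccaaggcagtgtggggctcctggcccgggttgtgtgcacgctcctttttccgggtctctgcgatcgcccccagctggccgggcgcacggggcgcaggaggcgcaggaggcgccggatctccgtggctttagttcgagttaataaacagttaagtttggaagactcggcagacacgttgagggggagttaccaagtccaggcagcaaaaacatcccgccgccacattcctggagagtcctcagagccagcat
Stab1: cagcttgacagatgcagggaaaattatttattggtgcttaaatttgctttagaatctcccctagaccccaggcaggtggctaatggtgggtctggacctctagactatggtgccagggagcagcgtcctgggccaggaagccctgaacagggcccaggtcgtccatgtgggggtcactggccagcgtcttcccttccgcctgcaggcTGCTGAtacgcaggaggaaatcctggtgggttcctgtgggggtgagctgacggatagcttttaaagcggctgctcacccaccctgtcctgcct
Cd36: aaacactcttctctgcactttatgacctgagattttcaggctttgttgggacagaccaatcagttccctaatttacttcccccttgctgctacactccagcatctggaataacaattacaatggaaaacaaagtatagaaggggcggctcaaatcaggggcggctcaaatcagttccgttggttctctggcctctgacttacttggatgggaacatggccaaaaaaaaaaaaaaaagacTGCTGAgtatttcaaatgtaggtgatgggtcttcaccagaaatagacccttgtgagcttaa

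The upstream Dab2 window held 1 TGCTGA that begins 100 bases before the start (at -100), the Stab1 window held 1 at -43 and the Cd36 window 1 at -11. The downstream Dab2 window held 0, as did those of Lrp1, Mrc1, Cd163 and Marco, and the table had no window for Msr1 or Scarb1. Of the 32851 windows of this length in the RefSeq table, 19.5% hold TGCTGA on either strand. The core of PU.1 and other ETS factors, GGAA or its reverse TTCC, was found from 3 to 7 times in each of the 8 windows of 7 members, and 96.0% of all windows hold it. The Fos and Jun motif TGANTCA, in 7.81% of all windows, and the palindrome CACGTG, in 7.15%, were in none of the 8. The GC box GGGCGG or its reverse CCGCCC, in 35.7% of all windows, was found 2 times at Cd36 and 1 time each at Lrp1 and Mrc1. The Dab2 starts differ in base composition, with 37.7% G and C upstream and 59.3% downstream, against a median of 52.7% over all windows. No match of the other motifs overlapped a TGCTGA match in these windows, and both strands were searched. A match is a description of the sequence only.

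Mrc1, the mannose receptor gene, and Cd163, the receptor gene for haptoglobin-bound haemoglobin, are classical markers of tissue-resident and alternatively activated macrophages, and both were low in these cells. Mrc1 was at 14.0, 16.3 and 13.02 CPM in the femur of mouse 7 and at 16.1, 14.9 and 13.3 CPM in its tibia. In mouse 19 it was at 12.8, 10.6 and 14.4 CPM in the femur and at 21.4, 18.9 and 19.0 CPM in the tibia. The bones overlapped in mouse 7 and were apart in mouse 19. Cd163 was at 2.23, 2.17 and 2.44 CPM in the femur and 2.93, 2.55 and 1.39 CPM in the tibia of mouse 7. In mouse 19 it was at 1.85, 1.59 and 3.15 CPM in the femur and 3.17, 3.69 and 3.72 CPM in the tibia. Cd163 rested on 78 to 139 counts per bone, and its bones overlapped in mouse 7, while in mouse 19 the highest femur library lay just under the lowest tibia library. Over both mice the log2 fold change was 0.34 ± 0.11 for Mrc1 and 0.34 ± 0.22 for Cd163.

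The class A scavenger receptors bind modified lipoproteins and bacteria. Msr1, the founding gene of the class, was at 151, 164 and 161 CPM in the femur and 172, 156 and 171 CPM in the tibia of mouse 7. In mouse 19 it was at 96.0, 107 and 94.5 CPM in the femur and 143, 138 and 147 CPM in the tibia. As with Mrc1, the bones overlapped in mouse 7 and did not in mouse 19. Its log2 fold change over both mice was 0.29 ± 0.06. Marco, the class A gene of splenic marginal zone and alveolar macrophages, had 0 counts in all 12 libraries. The counts fall mostly in even numbers, as when both ends of a fragment are counted, so a 0 allows up to 3 fragments or 6 counts, which is 0.404 to 0.617 CPM per library (counting error only).

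The class B receptors bind lipoproteins and fatty acids. Cd36, which takes up oxidised lipoproteins and long-chain fatty acids and also binds thrombospondin, was at 22.2, 25.1 and 20.7 CPM in the femur and 16.4, 15.3 and 14.6 CPM in the tibia of mouse 7. In mouse 19 it was at 4.01, 5.18 and 4.40 CPM in the femur and 8.36, 6.83 and 6.95 CPM in the tibia. All tibia libraries were below the femur libraries in mouse 7 and above them in mouse 19. The ratio of means was 0.681 in mouse 7 and 1.63 in mouse 19, and the log2 fold change over both, -0.10 ± 0.16, averages these opposite values. Scarb1, the receptor gene for high-density lipoprotein, was at 240.2, 232 and 244 CPM in the femur and 229, 232 and 236 CPM in the tibia of mouse 7, and at 265, 275 and 250.3 CPM and 258, 254 and 254 CPM in mouse 19. It had the smallest spread within a bone of the 8 genes (SD 0.041 on the log2 scale, against 0.366 for Cd163) and a log2 fold change of -0.04 ± 0.03.

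Lrp1, a very large receptor for apolipoprotein E, protease and inhibitor complexes and apoptotic cells, was the most abundant member. It was at 1549, 1591 and 1476 CPM in the femur and 1397, 1438 and 1397 CPM in the tibia of mouse 7, and at 1306, 1173 and 1170 CPM and 1251, 1155 and 1371 CPM in mouse 19. All 3 tibia libraries of mouse 7 were below its femur libraries, with a ratio of means of 0.917, and the bones overlapped in mouse 19. The log2 fold change over both was -0.04 ± 0.04.

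Counted over the members, 3 of 8 tested genes (Dab2, Stab1 and Msr1) were called, at an adjusted p under 0.05, in the edgeR quasi-likelihood fit of all 11806 tested genes with the mouse as a term, all of them higher. In that fit 7.20% of all genes were called, 3.51% higher and 3.69% lower. With the 3 libraries of each bone added up, the call of Msr1 was lost and those of Dab2 and Stab1 were not. In 2 of the 8, Dab2 and Stab1, all tibia libraries exceeded all femur libraries within each mouse, as they did in 2.44% of all genes tested. As the members were chosen with this contrast in view, nothing is read from these counts.

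**Figure D2:**
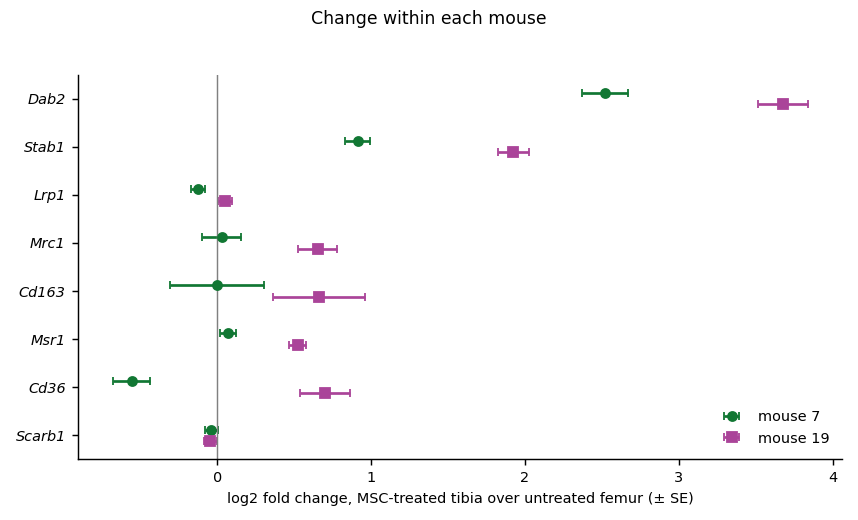
Log2 fold change of tibia over femur within mouse 7 (green circles) and mouse 19 (purple squares) with its standard error, from the fit with 1 mean per mouse and bone. Dab2 and Stab1 lie right of 0 in both mice, Cd36 lies at -0.56 in mouse 7 and 0.70 in mouse 19, and Lrp1 and Scarb1 lie within 0.13 of 0.

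The difference between the mice in this change was tested over all genes. It is formed from tibia and femur counts that were known when the members were chosen. The adjusted p-values of the members and the count called are therefore descriptions and no test of the members. The change was called more positive in mouse 19, at an adjusted p under 0.05, for 5 of the 8 tested members. Of all genes 4.74% were called either way and 2.89% were called more positive in mouse 19. On the log2 scale, mouse 19 minus mouse 7, the difference was 1.16 ± 0.24 for Dab2 (SE, edgeR adjusted p = 0.0031), from 2.52 in mouse 7 to 3.67 in mouse 19. For Stab1 it was 1.01 ± 0.13 (8.6e-06), from 0.91 to 1.92. Cd36 had the largest of the 8, 1.26 ± 0.20 (1.4e-04), and Msr1 had 0.45 ± 0.08 (2.7e-04), from 0.07 to 0.52. Mrc1 had 0.62 ± 0.18 (0.0366), from 0.03 to 0.65. The Mrc1 call went when tibia library 2 (0.0646) or 3 (0.108) or femur library 1 (0.0588) or 2 (0.130) of mouse 7, or tibia library 1 (0.117) or femur library 1 (0.0683) or 2 (0.140) of mouse 19, was dropped. Lrp1 (0.18 ± 0.07, 0.152), Cd163 (0.67 ± 0.43, 0.514) and Scarb1 (-0.00 ± 0.06, 0.984) did not pass. The Lrp1 difference passed without tibia library 2 of mouse 19 (0.0207) and with no filter on low counts (0.0091). With 1 animal on each side, this compares these 2 mice and not a population of them.

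The untreated femurs alone also differed between the animals. Cd36 was lower in the femur of mouse 19 by the most, a log2 difference of -2.31 ± 0.14 (SE, edgeR adjusted p = 2.1e-13), with means of 22.7 CPM in mouse 7 and 4.53 CPM in mouse 19. Stab1 was lower in mouse 19 by -1.50 ± 0.10 (1.7e-12), Dab2 by -0.69 ± 0.21 (0.0155), Msr1 by -0.67 ± 0.06 (7.6e-11) and Lrp1 by -0.34 ± 0.05 (1.4e-06). Scarb1 was higher in mouse 19, by 0.14 ± 0.04 (0.0099). Mrc1 (-0.20 ± 0.13, 0.270) and Cd163 (-0.04 ± 0.32, 0.943) did not pass. Thus 6 of the 8 were called and 5 of them lower in mouse 19, while 28.4% of all genes were called and 14.3% lower. The Dab2 call did not survive on halved counts (0.0594), nor without femur library 2 of mouse 19 (0.0529) or the third of mouse 7 (0.0734), and the Scarb1 call went when femur library 2 of mouse 19 (0.0962) or mouse 7 (0.0572) was dropped. In the treated tibias the ratio of mouse 7 to mouse 19 was smaller for Cd36 (2.09) and Stab1 (1.40), and for Dab2 it turned from 1.62 in the femur to 0.722. This contrast and the previous one share the femur libraries, so their directions are linked and are given side by side only. The femur counts too were known when the members were chosen, so the adjusted p-values of the members and the count called are again descriptions.

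Per length of exon, the order of the members can be compared. Per kilobase of the union of annotated exons (17717 bases for Lrp1, 7342 for Dab2), the level of Lrp1 was 68.7 to 86.9 CPM per kilobase as group means, that of Scarb1 27.3 to 31.0 and that of Msr1 15.6 to 26.2. These 3 were the highest in every bone. Scarb1 and Msr1 did not separate in the tibia of mouse 7, where the libraries ran from 26.9 to 27.8 and from 24.6 to 27.1. In the femur of mouse 7 the rest followed as Cd36 (6.31), Stab1 (2.74), Mrc1 (2.27), Dab2 (0.473) and Cd163 (0.418), with Stab1 overlapping Mrc1 and Dab2 overlapping Cd163. In its tibia they ran Stab1 (5.17), Cd36 (4.30), Dab2 (2.71), Mrc1 (2.32) and Cd163 (0.419), with no overlap between neighbours. In the femur of mouse 19 Dab2 (0.292) was last, level with Cd163 (0.402), after Mrc1 (1.98), Cd36 (1.26) and Stab1 (0.971), all without overlap above Cd163. In its tibia Dab2 (3.75) overlapped both Stab1 (3.70) and Mrc1 (3.10), which did not overlap each other, and these came ahead of Cd36 (2.06) and Cd163 (0.646). As a share of the summed level of the members per kilobase, Dab2 was 0.235 to 0.365% in the femur libraries and 1.72 to 3.02% in the tibia libraries. Lrp1 held 55.1 to 59.1% in the femur and 50.2 to 54.8% in the tibia.

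**Figure D3:**
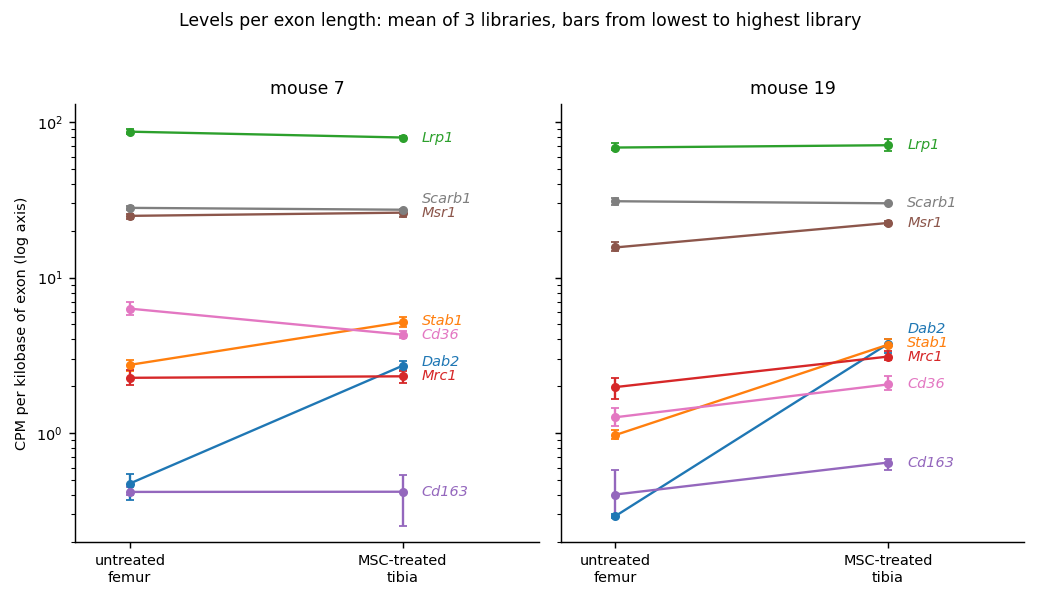
Level in CPM per kilobase of exon (log axis) in the femur and tibia of mouse 7 (left) and mouse 19 (right), as the mean of 3 libraries with bars from the lowest to the highest. Lrp1, Scarb1 and Msr1 stay on top, while Dab2 moves from among the lowest in the femur to the middle of the order in the tibia.

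The other genes of receptor uptake were described in 8 lists of 150 genes, all of them in the table and 127 tested. In the same edgeR fit 15 were higher and 14 lower in the tibia, 22.8% of those tested against 7.20% of all genes, with a median log2 fold change of 0.0014 against -0.0021 over all genes. With the libraries of each bone added up first, so that animals and not libraries are compared (called sums here), 4 were higher and 1 lower, against 48 and 17 of all genes. That fit has 1 sum per mouse and bone and almost no residual degrees of freedom, so a call lost on sums says little about the gene. The lists were chosen with earlier results of these data known, so nothing is read from these counts or from those of single lists below.

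The genes of adaptors and coat proteins that work beside DAB2 are given by list. Of 7 tested PTB adaptors of NPXY cargo 2 rose, and 0 were called on sums. Of all genes 3.51% were called higher and 3.69% lower in the fit over libraries. Snx17, a sorting adaptor that returns LRP1 to the surface, rose by 0.13 ± 0.04 on the log2 scale (SE, edgeR adjusted p = 0.0424, 0.454 on sums). Numb, another PTB adaptor, stood at 0.07 ± 0.05 (0.410), and Dab1, the close relative of Dab2, had 0 counts. Among 37 tested genes of the clathrin coat and endocytic machinery 3 rose and 2 fell, with a median of -0.0014, and 0 were called on sums. The clathrin light chain gene Cltb rose by 0.33 ± 0.10 (0.0385, 0.262 on sums) and the adaptor subunit gene Ap2a1 by 0.14 ± 0.04 (0.0471, 0.436 on sums). Reps2, a partner of endocytic adaptors, fell by 0.65 (SE 0.16, 0.0154, 0.186 on sums) and Hip1, which links clathrin to actin, fell by 0.17 (SE 0.04, 0.0077, 0.326 on sums). Myo6, outside the rule for named genes and named after its value was seen, had a larger change but was not called (-0.85 ± 0.29, 0.0814, 0.429 on sums). It was low, at 0.624 to 1.83 CPM as group means. The Snx17 call was lost without any 1 of 9 libraries, which are all but tibia library 1 of mouse 7, tibia library 3 of mouse 19 and femur library 1 of mouse 19 (adjusted p from 0.0572 to 0.118). The Cltb call was also lost without any 1 of 9 libraries, all but tibia libraries 1 and 2 and femur library 1 of mouse 19 (0.0503 to 0.0938). The Ap2a1 call was lost without any 1 of 8, all but tibia library 1 of mouse 7 and those same 3 of mouse 19 (0.0617 to 0.129), and the Reps2 call without femur library 1 of mouse 7 (0.0533).

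Other receptors changed singly. Of 13 tested scavenger receptors outside the members, Cxcl16, a membrane-bound chemokine that also binds oxidised lipoprotein, rose by 1.01 ± 0.12 (edgeR adjusted p = 7.6e-06, 0.0157 on sums), from 7.75 to 12.5 CPM in mouse 7 and from 6.81 to 17.3 CPM in mouse 19. Cd209a, a C-type lectin of dendritic cells, fell by 0.77 (SE 0.16, 0.0033, 0.114 on sums), and Clec7a, the beta-glucan receptor dectin-1, fell by 0.11 (SE 0.03, 0.0385, 0.518 on sums). The Clec7a call was lost without any 1 of 9 libraries, all but tibia library 1 of mouse 7 and tibia and femur libraries 3 of mouse 19 (0.0651 to 0.0988). Stab2, the relative of Stab1 found on sinusoidal endothelium, was at 0.344 to 1.08 CPM as group means (-0.68 ± 0.42, 0.380). Of 14 tested members of the LDL receptor and sorting receptor families, Lrp8 rose by 0.31 ± 0.07 (0.0103, 0.230 on sums) and Ldlrad3 fell by 0.31 (SE 0.05, 2.1e-04, 0.0438 on sums). Lrpap1, the chaperone of LRP1 (0.01 ± 0.04, 0.912), did not pass. In the mannose receptor family 1 of 3 genes was tested and 0 were called, at an unadjusted p of 0.05 as well as after adjustment, and Mrc2 stood at 0.174 to 0.480 CPM.

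Among 18 tested ligands and cargo 4 rose and 3 fell, against 3.51% higher and 3.69% lower of all genes, and on sums 1 rose and 0 fell. Thbs1, the thrombospondin that binds CD36 and LRP1, rose by 0.96 ± 0.13 (edgeR adjusted p = 5.8e-05, 0.0213 on sums), from 297 to 417 CPM in mouse 7 and from 115 to 320 CPM in mouse 19. Apoe, the apolipoprotein bound by LRP1, rose by 0.50 ± 0.10 (0.0023, 0.217 on sums), nearly all of it in mouse 19, where it went from 347 to 676 CPM against 833 to 868 CPM in mouse 7. Calr, a chaperone that bridges dying cells to LRP1 when on their surface, rose by 0.22 ± 0.03 (1.5e-04, 0.117 on sums). C1qb, of the opsonin C1q, rose by 0.20 ± 0.05 (0.0197, 0.300 on sums), a call that was lost when mouse 19 lacked tibia library 1 (0.0542) or femur library 2 (0.0571).

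**Figure D4:**
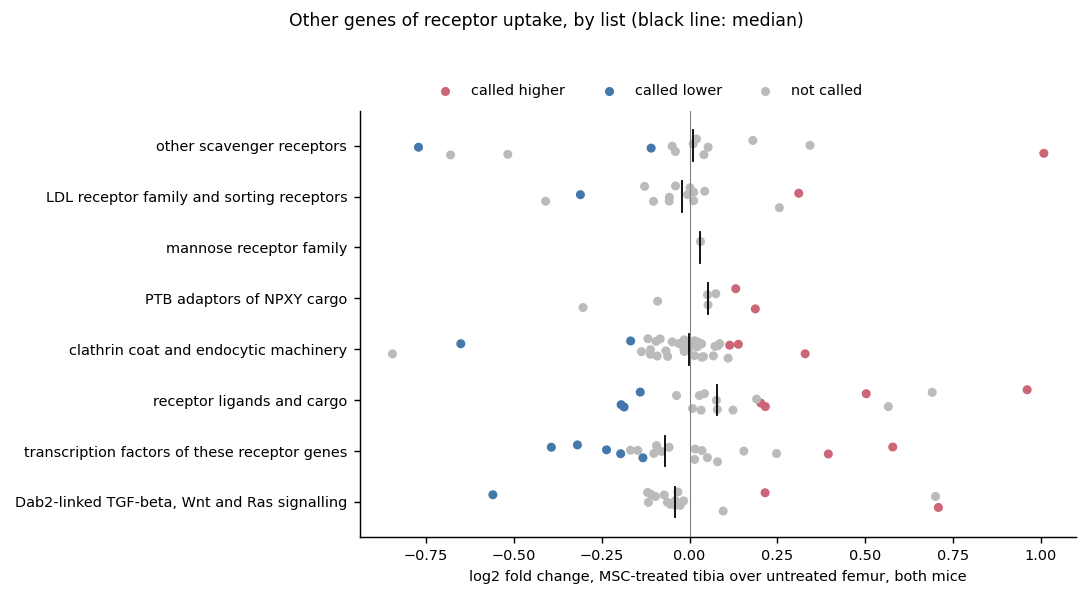
Log2 fold change of tibia over femur (horizontal axis) for each tested gene of 8 lists of receptor uptake, with genes called higher in red, called lower in blue, not called in grey, and the list's median as a black line. Medians lie between -0.07 and 0.08, and single genes such as Cxcl16 and Thbs1 lie near 1.

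Of 20 tested transcription factors linked to these receptor genes 2 rose and 5 fell, against 3.51% higher and 3.69% lower of all genes. On sums 1 rose and 0 fell. Maf, a factor of resident macrophages, rose by 0.58 ± 0.11 (edgeR adjusted p = 0.0011, 0.122 on sums), from 30.3 to 35.0 CPM in mouse 7 and from 17.6 to 35.5 CPM in mouse 19. Pparg, the nuclear receptor that drives Cd36 in macrophages, fell by 0.39 (SE 0.09, 0.0098, 0.230 on sums), and Irf4 fell by 0.32 (SE 0.09, 0.0265, 0.356 on sums). The Irf4 call was lost without tibia library 1 or 3 or any femur library of mouse 7, or tibia library 1 of mouse 19 (0.0502 to 0.0711). Of 17 tested genes of the TGF-beta, Wnt and Ras pathways that DAB2 binds or restrains, the receptor gene Tgfbr1 rose by 0.22 ± 0.04 (0.0020, 0.186 on sums) and the adhesion gene Cdh1 by 0.71 ± 0.16 (0.0080, 0.167 on sums). Dab2ip, which encodes a Ras-restraining protein that binds DAB2, fell by 0.56 (SE 0.10, 8.8e-04, 0.122 on sums).

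The genes whose log2 CPM followed Dab2 most closely over the 12 libraries were Saa3, an acute-phase gene (Pearson r = 0.990), Spp1, the osteopontin gene (0.976), Tgfbi, a secreted adhesion protein gene (0.975), Arg1, the arginase 1 gene (0.974), and Cd38, an NAD-consuming surface enzyme gene (0.974). For Stab1 they were the integrin gene Itgb5 (0.982), Igfbp6 (0.978), Ecm1 (0.962), Mmp19 (0.960) and the interleukin-4 receptor gene Il4ra (0.947). Within the members, Stab1 followed Msr1 (0.920) more closely than Dab2 (0.833). Dab2 had r = 0.694 with Mrc1, 0.571 with Msr1, 0.117 with Cd36 and -0.273 with Scarb1. The 12 libraries come from 4 bones of 2 mice and fall into groups by bone, so these values only describe a shared order.

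Markers of other cells give the setting of these values. Their calls are from the edgeR fit over libraries, in which 3.51% of all genes were called higher and 3.69% lower. In bulk RNA, a different number of cells of a type and a different amount of RNA per cell cannot be told apart. Sinusoidal endothelium carries Stab1, Stab2 and Mrc1, and its 12 markers summed to 56.3 to 63.4 CPM in the femur and 47.1 to 51.5 CPM in the tibia of mouse 7, and to 38.9 to 47.2 and 33.3 to 38.5 CPM in mouse 19. Most of this was Pecam1, which myeloid cells share and which was lower in the tibia. Of the 12 markers 5 were tested and 1 was called. Cdh5 had 62 counts over all 12 libraries, while Tek and Emcn, with 6 each, were among those too low to test. The 12 mesenchymal stromal markers summed to 7.46 to 12.1 CPM in the femur and 5.32 to 6.57 CPM in the tibia of mouse 7. In mouse 19 they summed to 3.81 to 6.06 and 5.01 to 7.89 CPM. Of these markers 4 were tested and 0 were called, and Col3a1 (9 counts in all) and Pdgfra (11) were among those too low to test. Adipocyte markers summed to 3.56 to 6.62 CPM, with Plin1 and Lep at 0. Of 8 megakaryocyte and platelet markers, which accompany Cd36 in platelets, 4 were tested and 1, Pf4, was higher (sums of 6.59 to 12.1 CPM in the femurs and 7.52 to 15.3 CPM in the tibias). Granulocyte precursor markers rose, 5 of 6, from 716 to 748 CPM in the femur to 1028 to 1273 CPM in the tibia of mouse 7 and from 1192 to 1488 to 1463 to 1807 CPM in mouse 19. Of 5 classical monocyte markers 3 were lower (13406 to 14164 CPM in the femurs, 12395 to 12897 CPM in the tibias), and of 7 dendritic cell markers 3 were lower (98.5 to 117 CPM against 70.2 to 98.5 CPM). Of 7 tested neutrophil markers 2 were higher and 1 lower, at 15322 to 16987 CPM in mouse 7 and 23038 to 28175 CPM in mouse 19. Of 6 tested erythroid markers 2 were lower. Their list summed to 30.6 to 42.8 CPM in the femur and 21.6 to 23.4 CPM in the tibia of mouse 7, and to 54.1 to 67.8 and 36.2 to 45.0 CPM in mouse 19. B lineage, T and NK cell and osteoclast markers summed to at most 78.3 CPM in any library, and of the 11 tested 1, the osteoclast gene Ocstamp, was higher. Of the 8 macrophage markers Mertk was higher and Lyz2 lower, with sums of 16182 to 19388 CPM in the femurs and 15670.5 to 17550 CPM in the tibias. With the libraries of each bone added up, 3 granulocyte precursor and 2 macrophage markers were called higher. In that fit 1 dendritic cell and 1 erythroid marker were called lower, and 0 markers of the other lists were called. The part of these cells in the values of the members was not tested.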

How the data were processed

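RNA of sorted marrow macrophages was sequenced in 12 libraries, 3 for each bone of 2 mice. The submitters' processing notes name bcl2fastq, HISAT2, featureCounts, Subread, DESeq2 and mm10, with no versions or roles, and the strand setting and annotation are not stated in the material analysed here. The deposited table holds raw counts per gene. Of counts from 1 to 10, 69.8% were even. Totals ran from 9773455 to 14869150. Libraries of a bone differed beyond sampling noise (chi-square per gene 1.37 to 3.15 on halved counts), so none was merged.

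Genes were kept by filterByExpr (minimum count 10), which left 11806, scaled by TMM and tested with edgeR 4.0.16 in R 4.3.3 by the quasi-likelihood test with Benjamini-Hochberg adjustment over all of them. A call is an adjusted p under 0.05. The mouse was a term for tibia against femur, because both bones came from the same animal. A fit with 1 mean per mouse and bone gave the changes within each mouse, the difference between mice and the femur contrast. Library numbers did not pair libraries (correlation of deviations -0.0474 to 0.000594). Sums per mouse and bone were fitted as an alternative, with DESeq2 1.42.0, other filters, halved counts and each library left out. The members and lists were chosen with earlier results of these data known. Named genes were the 9 members, up to 4 called genes per list by size of change, 10 genes named whatever their values, and the 5 genes most correlated with Dab2 and with Stab1. Values of some list genes are not reported here. Promoter sequences are from RefSeq (GRCm38.p6), and exon lengths from GENCODE. The code was tested on simulated data.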

Additional observations from a re-analysis of the deposited data

Results flagged for a closer look

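The change from femur to tibia differed between the mice for 5 of the 8 tested members and for 10 of the 127 tested genes of the other lists, 8 of these more positive and 2 more negative in mouse 19, in the edgeR test of the difference over all genes (adjusted p in brackets), with 1 animal on each side. Of all genes tested, 4.74% were called either way and 2.89% more positive in mouse 19. The members and lists were chosen with earlier results of these data known, so nothing is read from these counts. The adjusted p-values of the members and list genes are descriptions for the same reason. On the log2 scale, mouse 19 minus mouse 7, Dab2 differed by 1.155 (0.0031), Stab1 by 1.012 (8.6e-06) and Msr1 by 0.4539 (2.7e-04). Mrc1 differed by 0.6249 (0.0366). Cd36 differed by 1.255 (1.4e-04) and went from -0.56 in mouse 7 to 0.70 in mouse 19. Thbs1 differed by 0.993 (8.2e-05), from 0.49 to 1.48. Apoe differed by 0.9032 (1.6e-11), from 0.06 to 0.96. Maf differed by 0.8028 (1.8e-04), from 0.21 to 1.01. Cd209a differed by 0.8786 (0.0424), from -1.18 to -0.30, and that call was lost without any 1 of 8 libraries, all but tibia library 1 and femur library 3 of mouse 7 and tibia library 2 and femur library 3 of mouse 19 (0.0591 to 0.192). The other 6 list genes lie outside the rule for named genes and were named after their values were seen, and their calls were not recomputed with libraries left out. Klf4 (-0.45, 0.0011) and Irf8 (-0.31, 9.6e-04) were the 2 that were more negative in mouse 19. Pltp (0.68, 0.0054), C1qa (0.42, 0.0115), Itgb1 (0.20, 0.0385) and Picalm (0.19, 0.0239) were more positive there.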

How the results depend on the processing

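With the mouse as a term, edgeR called 414 genes higher and 436 lower in the tibia. Without the replicate block of the mouse it called 50 and 24, with a replicate block of mouse and library number 239 and 256, and on counts summed per mouse and bone 48 and 17. Leaving out 1 library gave 284 to 498 higher and 279 to 490 lower, the counts of lower genes being 279 when mouse 7 lacked its tibia library 3 and 283 when mouse 19 lacked its tibia library 2. The log2 fold change of Dab2 ran from 2.93 to 3.19 with a library left out. The value of Cd36 moved from -0.10 to -0.27 without the mouse term. No called result changed direction under these alternatives. Of the 22 list genes named as called, 22 stayed called with DESeq2's Wald test, 22 on halved counts, 21 with DESeq2 size factors, 21 with no filter, 21 of 21 above 5 CPM, 16 with the replicate block of mouse and library number, 4 on sums and 3 without the mouse term. The causes of the changes were not tested. The sums leave no residual degrees of freedom for the difference between mice, so it was not run on them. Cd163 and Dab2 in the femurs rest on the fewest counts.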

Other observations

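The other list genes that passed the edgeR test for tibia over femur, outside the rule for named genes and named here after their values were seen, changed by small amounts. Among ligands and cargo, the complement gene C3 fell by 0.19 (log2, SE 0.03, edgeR adjusted p = 8.8e-05), the fibronectin gene Fn1 fell by 0.14 (SE 0.03, 0.0046) and the lipoprotein lipase gene Lpl fell by 0.19 (SE 0.05, 0.0278). Among transcription factors, Rxra, the partner of Pparg, fell by 0.24 (SE 0.05, 0.0029), Fosl2 fell by 0.20 (SE 0.04, 0.0014) and Cebpa fell by 0.13 (SE 0.03, 0.0187). The clathrin adaptor subunit gene Ap2s1 rose by 0.11 (SE 0.04, 0.0482). On sums per mouse and bone none of these 7 passed, with adjusted p from 0.186 for Fosl2 to 0.522 for Ap2s1.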
